A study of Mus musculus with 8 samples.

Results

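The comparison described here is that of untreated mouse primary hepatocytes lacking transglutaminase 2 (KO) with untreated wild-type (WT) hepatocytes. Its members were all arrays titled as having received no ethanol: 2 KO arrays and 2 WT arrays, 4 of the 8 arrays in the series. Every probe set other than the array's own controls entered the comparison, 45037 in all. Cells of both genotypes came from mice of the strain given as C57BL6/129SVJ and were incubated for 15 h with 0 mM ethanol. The remaining 4 arrays hold cells of the same genotypes given 100 mM ethanol, and were used to estimate the spread and to set the untreated difference beside the treated one. Arrays of a group are lettered A and B. The labels state neither the age of the mice nor which part of Tgm2 was deleted, nor whether A and B came from separate animals or cultures, and the p-values therefore describe the spread among these arrays alone, which may be technical. Since whole cultures were measured, fewer cells of a type and less RNA per cell cannot be told apart.

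Transglutaminase 2 crosslinks proteins by joining glutamine to lysine side chains, and also acts as a GTP-binding protein inside cells and as a partner of integrins and fibronectin outside them. Hepatocytes make most plasma proteins, build bile acids and lipoproteins, release glucose in fasting, dispose of ammonia and foreign compounds, and form a polarised epithelium held together by junctions. Much of this is driven by a small network of liver-enriched transcription factors, among them HNF4A and FOXA2, and hepatocytes lose part of it when they are isolated and cultured.

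Tgm2, the deleted gene, read 16360 and 16520 on the WT arrays A and B and 361.9 and 352.3 on the KO arrays A and B, in quantile-normalised intensity, the unit of every level below. All 6 of its tested probe sets were lower in KO. The KO arrays were dim before normalisation: their trimmed mean intensities were 98.47 and 101.5, against 198.7 and 266.5 for WT. Relative to the trimmed mean, the cre spike-in control, which is added after RNA extraction, stood at 98.4 and 88.8 in KO and at 31.6 and 28.1 in WT. For the spike-ins bioC and bioB the ratio of intensities was 0.993 on WT array A and between 2.71 and 3.14 on the other 3 untreated arrays. On the ethanol arrays it was 0.937 (WT) and 1.06 (KO) for array A and 2.59 (WT) and 3.0 (KO) for array B. Untreated KO array A, at 2.98, was thus the only A array that read like the B arrays. The part of this ratio in the results was not tested. The 18S signal relative to the trimmed mean was 0.769 and 0.463 in WT and 0.18 and 0.0885 in KO, and its 3′ to 5′ ratio was 4.83 on KO array B against 1.83 to 1.96 on the others. Among the untreated arrays, brightness and the 18S signal thus moved with genotype. Their part in the results was not tested, and they cannot be told apart from genotype here. On KO ethanol arrays A and B the trimmed mean was 103.1 and 297.4, the cre control 31.4 and 31.9 and the 18S signal 0.927 and 0.556. On WT ethanol arrays A and B cre was 33.9 and 28.0 and 18S 1.23 and 0.955. The high cre and low 18S readings were thus those of the untreated KO arrays, not of all KO arrays. Arrays of one genotype correlated at 0.982 (WT) and 0.978 (KO) across all probe sets, and arrays of different genotypes at 0.957 to 0.963.

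Differences are given as KO minus WT on the scale of log2(intensity + 16) with the standard error of the fit, and n = 2 arrays per group throughout. A gene, represented by its brightest probe set, was called when limma's adjusted p was under 0.05. Of 11584 genes tested, 1644 were called higher in KO (14.2%) and 2243 lower (19.4%), 3887 in either direction (33.6%). Calls of at least 2-fold were 402 higher (3.47%) and 448 lower (3.87%). Of 2012 called genes with several tested probe sets, 544 had all of them called in the same direction, and 68 had a probe set called in the opposite direction. A fold change below thus describes the brightest probe set, and other probe sets of the gene may not have been called. Counts of a gene's probe sets refer to those tested. Leaving out any 1 untreated array, which left its group with a single array assumed to vary like the others, gave 990 to 1159 higher and 1363 to 1479 lower. These arrays include WT array A, whose spike-in ratio stood apart among the untreated arrays but was like that of the ethanol A arrays. The 4 values of the 2 groups did not overlap for 71.9% of tested genes.

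**Figure D1:**
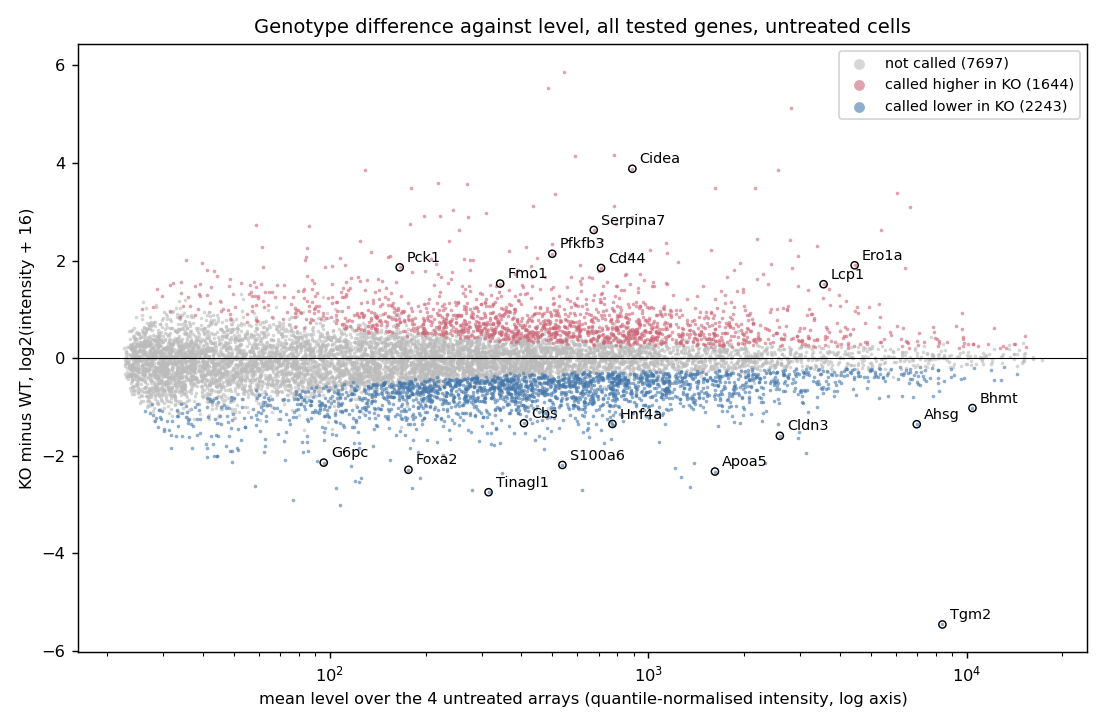
Each point is 1 of the 11584 tested genes, placed by its mean quantile-normalised intensity over the 4 untreated arrays (log axis) and by KO minus WT in log2(intensity + 16). Called genes are coloured, and genes named in the text are ringed. Tgm2 lies alone at -5.46, and most calls have a mean level over 100.

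Calls became more frequent with level, from 9.31% of the genes under 100 to 56.4% of those between 1000 and 5000. Genes of metabolism, secretion and cell structure are mostly well expressed in hepatocytes, so the counts below are best read against the 2896 tested genes of highest level, of which 55.0% were called, 25.2% higher and 29.9% lower. Scaling also mattered for the brightest genes. With arrays scaled by their trimmed mean instead of quantile normalised, the median of all genes moved little (-0.087 against -0.082), but that of the 204 genes between 5000 and 10000 moved from -0.02 to 0.35, and that of the 67 genes over 10000 from 0.03 to 0.81. For genes under 5000 the medians of the level classes differed by at most 0.03 between the scalings. For named genes with a mean over 5000 in both groups, and for Bhmt, Ahsg, Fn1 and Ccn2, the text gives the value under both scalings.

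Of 485 tested genes on 19 metabolic lists, 103 were higher (21.2%) and 153 lower (31.5%). The 9 secretory lists held 309 tested genes, with 65 higher (21.0%) and 103 lower (33.3%). They include the acute phase proteins, which went against the total with 13 higher and 2 lower of 21 (median 0.43, 0.93 with trimmed-mean scaling). Outside these programs, 23 of 24 tested NF-kB and chemokine genes were higher (median 2.63). On the 5 structural lists, 36 of 232 tested genes were higher (15.5%) and 67 lower (28.9%). These shares lay near those of the 2896 genes of highest level, apart from a lower share of higher calls among structural genes, a difference that was not tested. The lists differed among themselves. The methionine and one-carbon list had no higher and 12 lower members of 23, the respiratory chain complex I list 1 higher and 19 lower of 33, and the list of triglyceride, lipid droplet and lipase genes 11 higher and 6 lower of 29.

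**Figure D2:**
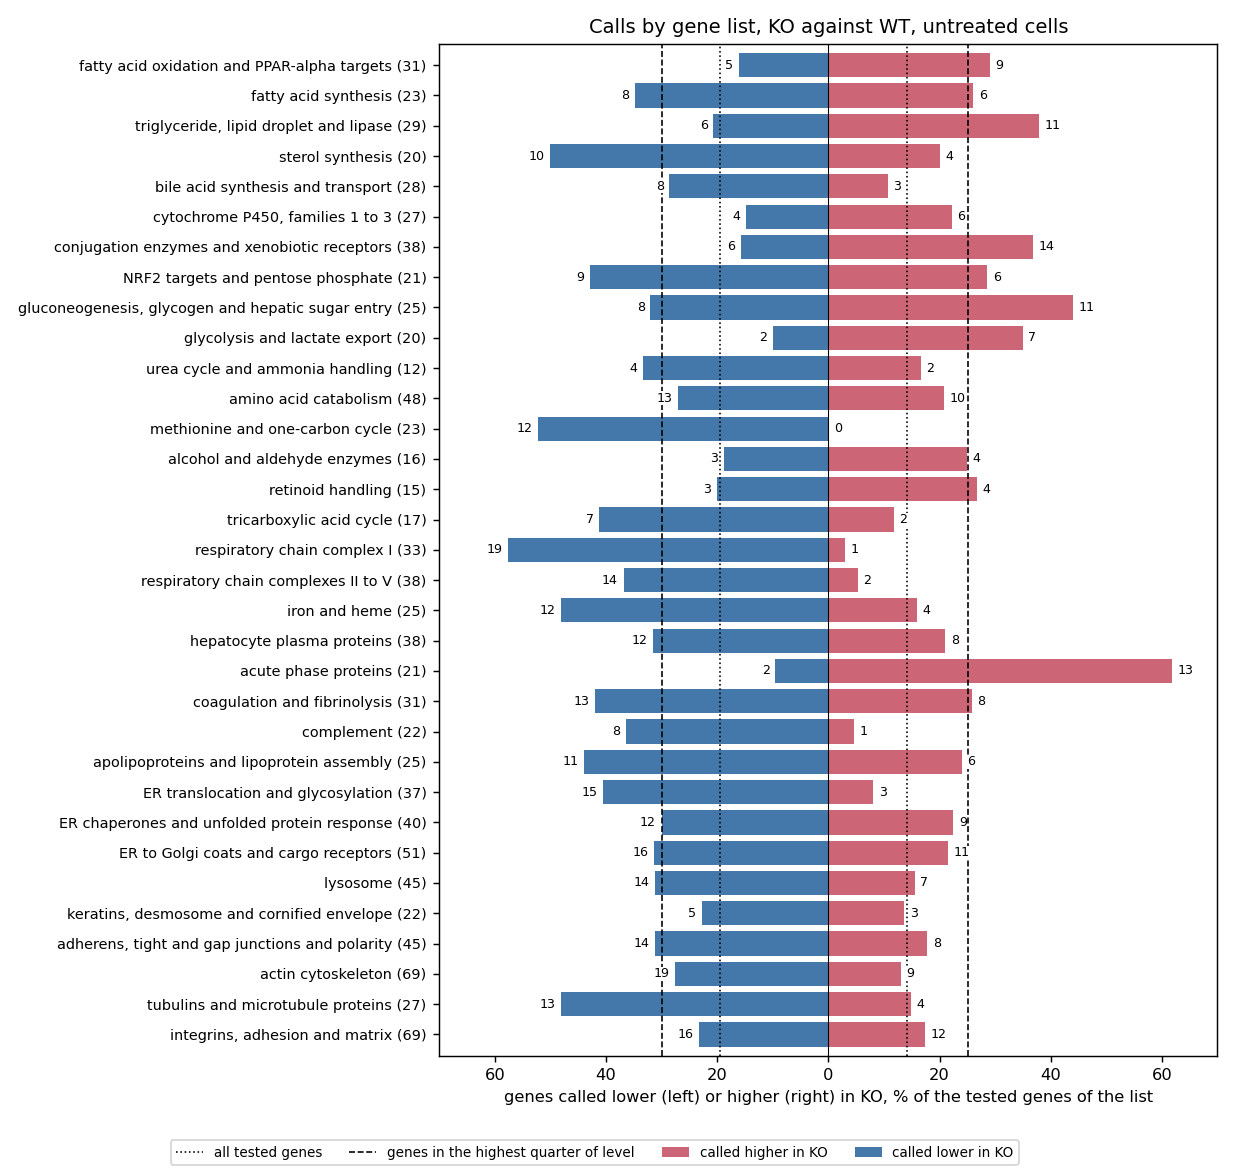
Bars show the share of each list's tested genes (their number in parentheses) called higher (right) or lower (left) in KO, with the counts at the bar ends. Dotted lines mark the shares of all tested genes (14.2% and 19.4%) and dashed lines those of the 2896 genes of highest level (25.2% and 29.9%). Most lists have calls in both directions, while the methionine list has none on the right.

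Among liver-enriched transcription factors, 9 of 28 tested genes were lower and 2 higher, with a list median of -0.15. Foxa2, a pioneer factor that opens liver enhancers, read 285.0 and 322.9 in WT and 42.23 and 57.20 in KO. It fell by 2.29 ± 0.18 on the log2 scale (adjusted p = 2.69e-05). Hnf4a, the nuclear receptor that sustains the mature hepatocyte program, read 1092 and 1143 in WT and 445.8 and 411.1 in KO, a 2.55-fold decrease (adjusted p = 1.45e-05). Neither gene's groups overlapped, as for 71.9% of all tested genes, and the KO arrays were the low ones. Rxra, the common partner of lipid-sensing nuclear receptors, was 2.24-fold lower, and Nr2f6, an orphan nuclear receptor, was 2.15-fold lower. Cebpd, a factor that drives acute phase genes, was 2.50-fold higher, at 425.8 and 446.6 in KO against 167.7 and 161.7 in WT. With an offset of 64 in place of 16 the Foxa2 difference was -1.70. Averaged over all probe sets of the gene, the Hnf4a difference was -0.68 and that of Cebpd 0.71.

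Sp1, the zinc finger factor on which the study centres, read 828.0 and 639.9 in WT and 720.8 and 683.8 in KO (adjusted p = 0.81). The groups overlapped, while 1 of its 3 tested probe sets was called higher. Met, the receptor for hepatocyte growth factor, was 1.42-fold lower on its brightest probe set (adjusted p = 0.0015), but 1 of its 2 tested probe sets was not called. Averaged over all probe sets of the gene, those below the filter included, Met showed no difference (0.00, adjusted p = 0.988).

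The glucose genes went in both directions. Of 25 tested genes of gluconeogenesis, glycogen and hepatic sugar entry, 11 were higher and 8 lower. G6pc, the catalytic subunit of glucose-6-phosphatase, which frees glucose for release, read 173.8 and 158.5 in WT and 20.88 and 29.98 in KO. It fell by 2.14 ± 0.21 on the log2 scale (adjusted p = 8.12e-05), and its difference was -1.36 with an offset of 64. Slc37a4, which carries glucose-6-phosphate to that enzyme, was 2.02-fold lower. Pcx and Fbp1, which catalyse the first and a late step of gluconeogenesis, fell 2.00-fold and 1.72-fold, Fbp1 from 9664 and 10210 to 5661 and 5890. The Fbp1 difference was -0.78, and -0.41 with trimmed-mean scaling (adjusted p = 0.0101). Pck2, the mitochondrial form of phosphoenolpyruvate carboxykinase, was 2.32-fold lower. Its cytosolic form went the other way: Pck1 read 59.19 and 65.90 in WT and 254.6 and 284.2 in KO, an increase of 1.86 ± 0.20 (adjusted p = 0.000127), or of 1.08 averaged over its probe sets. Within 1 pathway, then, G6pc and Pck1 lay on opposite sides, and neither gene's groups overlapped, as for 71.9% of all tested genes.

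The promoters of G6pc and Pck1 are shown because these genes of 1 pathway moved in opposite directions, and that of Apoa5 because it had the largest decrease among the lipoprotein genes. Each runs from 250 bases before to 50 after the RefSeq gene start (GRCm38.p6), 5′ to 3′ on the gene's strand, which is the plus strand for all 3. G6pc lies at chr11:101367466-101367765, Pck1 at chr2:173152823-173153122 and Apoa5 at chr9:46268358-46268657. Capitals mark the Sp1-type GC box GGGCGG and the TATA motif TATAAA, searched on both strands. The motifs do not overlap each other.
G6pc: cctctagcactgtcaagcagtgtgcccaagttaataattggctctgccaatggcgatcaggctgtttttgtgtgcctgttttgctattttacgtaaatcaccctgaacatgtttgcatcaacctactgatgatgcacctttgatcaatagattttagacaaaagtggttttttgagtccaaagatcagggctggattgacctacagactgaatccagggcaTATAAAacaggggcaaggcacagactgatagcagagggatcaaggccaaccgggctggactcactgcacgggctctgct
Pck1: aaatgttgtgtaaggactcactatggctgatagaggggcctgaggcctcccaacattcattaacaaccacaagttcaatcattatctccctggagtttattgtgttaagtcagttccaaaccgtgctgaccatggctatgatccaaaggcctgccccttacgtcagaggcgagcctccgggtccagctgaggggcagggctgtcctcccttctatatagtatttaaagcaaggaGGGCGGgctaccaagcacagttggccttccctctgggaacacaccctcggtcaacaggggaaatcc
Apoa5: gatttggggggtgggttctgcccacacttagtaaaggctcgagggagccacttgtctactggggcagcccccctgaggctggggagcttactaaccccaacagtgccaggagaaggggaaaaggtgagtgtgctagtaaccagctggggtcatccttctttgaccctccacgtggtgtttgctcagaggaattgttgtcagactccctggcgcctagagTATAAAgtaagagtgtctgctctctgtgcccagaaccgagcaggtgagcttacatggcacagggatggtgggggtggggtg

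The TATA motif began 29 bases before the start in G6pc and 31 in Apoa5, and the GC box 16 bases before it in Pck1. Across the first promoter of each of the 9390 tested genes with a RefSeq entry, the GC box was present in 63.1%, against 35.9% of all 27025 promoters in the table. It was present in 65.3% of genes called higher, 65.9% of those called lower and 61.8% of those not called. The TATA motif was present in 7.84% of promoters of tested genes and in 14.2% of all promoters. Its share was 15.8% of the 322 promoters of genes at least 2-fold higher and 6.39% of the 360 of genes at least 2-fold lower. These shares describe the letters in the windows and carry no test.

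Ppp1r3c and Ppp1r3b, which bring protein phosphatase 1 to glycogen, were 2.08-fold and 1.75-fold higher, and Ugp2, which makes the UDP-glucose that glycogen is built from, was 1.88-fold higher at 5841 and 6068 against 2992 and 3317. Of 20 tested genes of glycolysis and lactate export, 7 were higher, 2 lower and 11 not called. Pfkfb3, which makes the fructose bisphosphate that speeds glycolysis, read 171.4 and 177.5 in WT and 893.6 and 757.4 in KO (4.40-fold, adjusted p = 1.13e-05). Slc2a1, the glucose transporter GLUT1, rose 2.44-fold and Slc16a3, a lactate exporter, 3.52-fold. The hexokinases Hk1 and Hk2 were 1.55-fold and 1.63-fold higher. The liver pyruvate kinase Pklr, counted on the list of gluconeogenesis, glycogen and hepatic sugar entry, was 1.95-fold higher. All tested probe sets of these 6 genes were called higher. The median of the glycolysis list was 0.01 with quantile normalisation and 0.27 with trimmed-mean scaling.

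The lipid droplet list held 9 increases of at least 2-fold. Cidea, which fuses lipid droplets and is low in healthy mouse liver, read 76.76 and 127.2 in WT and 1695 and 1672 in KO. This was an increase of 3.88 ± 0.18, or 14.7-fold (adjusted p = 9.18e-07). Hilpda, an inhibitor of the main triglyceride lipase, was 3.88-fold higher, at 3074 and 3123 against 812.3 and 762.9. Ces1d, a carboxylesterase that mobilises stored triglyceride, was 3.80-fold higher on all 3 of its probe sets. Cd36, a fatty acid transporter, rose 3.18-fold (1.08 on the log2 scale averaged over all of its probe sets), and Fitm1, which helps droplets bud from the ER, rose 2.40-fold. Gpam, which catalyses the first step of triglyceride synthesis, was 2.05-fold lower, and Mgll, which splits monoglycerides, was 2.12-fold lower. Counts in this list hardly moved with scaling (11 higher and 6 lower under both).

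Fatty acid oxidation and synthesis changed gene by gene. Of 31 tested oxidation and PPAR-alpha target genes, 9 were higher and 5 lower, with a median of -0.01. Cyp4a12a, a fatty acid omega-hydroxylase, was 3.15-fold higher at 2650 and 2732 against 840.5 and 847.1, while its relative Cyp4a14 was 3.13-fold lower at 1498 and 1351 against 4290 and 4704. Ehhadh, the peroxisomal bifunctional enzyme, rose 2.79-fold, Pdk4, the kinase that shuts off pyruvate dehydrogenase, 2.42-fold and Bdh1, a ketone body enzyme, 2.07-fold. Acadm, the medium-chain acyl-CoA dehydrogenase, was 1.51-fold higher and the short-chain enzyme Acads 1.68-fold lower. Both enzymes of the carnitine shuttle, Cpt1a and Cpt2, were lower on their brightest probe sets, 1.67-fold and 1.85-fold. Only 1 of 3 tested probe sets of Cpt1a and 1 of 2 of Cpt2 were called. In fatty acid synthesis, 6 of 23 tested genes were higher and 8 lower. Srebf1, which encodes the master regulator SREBP-1, was 1.91-fold lower at 479.7 and 503.8 against 938.5 and 967.4. The desaturase Fads2 was 1.56-fold lower, the elongase Elovl3 2.46-fold lower and the elongase Elovl5 2.04-fold higher. Elovl5 is the only one of the 6 higher members named here, and the others include further enzymes of fatty acid synthesis. The genes named thus do not show a fall of the whole pathway.

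Of 20 tested sterol synthesis genes, 10 were lower, 4 higher and 6 not called, none by 2-fold, with a median of -0.25 (-0.27 with trimmed-mean scaling). Cyp51, which demethylates lanosterol, read 2050 and 1997 in WT and 1203 and 1224 in KO (1.66-fold, adjusted p = 9.05e-05), but only 1 of its 3 tested probe sets was called. Ebp, a sterol isomerase, was 1.59-fold lower. Among the higher members, Insig1, which holds back the SREBP pathway, rose 1.72-fold and Stard4, a cholesterol carrier, 1.83-fold. The higher calls also included enzymes of sterol synthesis, which are not named here. Npc1, which exports cholesterol from lysosomes and is counted with the lysosomal genes, rose 1.63-fold.

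Bile acid synthesis and transport had 8 lower and 3 higher of 28 tested genes, with a median of -0.27 (-0.30 with trimmed-mean scaling). The share called, 39.3%, was below the 55.0% of the 2896 genes of highest level. Cyp39a1, the oxysterol 7-alpha-hydroxylase, read 195.5 and 209.7 in WT and 29.61 and 32.92 in KO. It fell by 2.21 ± 0.27 (adjusted p = 0.000302), or by 1.48 with an offset of 64. Cyp8b1, which sets the share of cholic acid, was 2.73-fold lower, at 93.46 and 91.25 against 297.3 and 264.2. Cyp7a1, the rate-limiting enzyme, was dim on all arrays, at 21.65 and 30.09 in WT and 39.24 and 39.50 in KO, and was not called (adjusted p = 0.299). Among the lower members were transporters: the uptake carrier Slc10a1 1.93-fold, the bile salt export pump Abcb11 1.57-fold, the phospholipid flippase Abcb4 2.19-fold and the efflux pump Abcc4 2.24-fold.

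The methionine and one-carbon list had calls in a single direction: 12 of 23 tested genes were lower and none higher (median -0.31, -0.34 with trimmed-mean scaling). Bhmt, which remethylates homocysteine with betaine, read 13350 and 14670 in WT and 6952 and 6782 in KO, a 2.04-fold decrease (adjusted p = 8.18e-06). The difference of -1.02 became -0.50 with trimmed-mean scaling (adjusted p = 0.00217). Cbs, which commits homocysteine to cysteine, fell 2.52-fold, from 554.9 and 626.9 to 232.4 and 215.9. Mat1a, the liver enzyme that makes S-adenosylmethionine, was 1.74-fold lower, Mthfd1, a folate enzyme, 2.12-fold and Nnmt, which methylates nicotinamide, 2.25-fold. The KO arrays were the low ones for each of these 5 genes. Under ethanol the list was less uniform: 7 of its 12 called genes kept their sign, against 86.9% of all called genes. For 8 of the 23 tested genes the genotype difference was called different between untreated and ethanol-treated cells, against 4.39% of all tested genes. Such calls rest on the variance prior, since a constant prior left 1 among all tested genes.

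Genes of glutathione synthesis were also lower. Gclc and Gclm, the 2 subunits of the rate-limiting ligase, fell 1.88-fold and 1.41-fold, and Gss, the glutathione synthetase, fell 1.56-fold. Slc7a11, the cystine importer, was 2.18-fold lower and Nqo1, a quinone reductase used as a marker of NRF2 activity, 1.91-fold lower. Hmox1, the heme oxygenase that NRF2 and other factors induce, went the other way, from 2412 and 2151 in WT to 4190 and 4367 in KO. The whole list of NRF2 targets and pentose phosphate genes had 9 lower and 6 higher of 21 tested, and its split depended on scaling (6 lower and 9 higher with trimmed-mean scaling).

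Amino acid catabolism was divided, with 10 higher and 13 lower of 48 tested genes. Csad, the decarboxylase of taurine synthesis, was 3.62-fold lower, at 195.0 and 195.5 against 762.9 and 736.1. Dpyd, which breaks down pyrimidines, was 2.33-fold higher, Aass, the first lysine-degrading enzyme, 1.73-fold and Aldh6a1, which acts late in valine breakdown, 1.75-fold. Of 12 tested urea cycle and ammonia genes, 4 were lower and 2 higher. Cps1, the entry enzyme of the cycle, was 1.53-fold lower at 2861 and 2947 against 4317 and 4599. Asl, which releases arginine, was 1.73-fold lower and Slc25a15, the mitochondrial ornithine carrier, 1.92-fold lower.

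Of 38 tested conjugation enzymes and xenobiotic receptors, 14 were higher and 6 lower (median 0.22, 0.35 with trimmed-mean scaling). Fmo1, a flavin monooxygenase, was 2.88-fold higher and Sult2a8, a sulfotransferase, 2.45-fold. Among P450 genes of families 1 to 3, 6 of 27 tested were higher and 4 lower, shares below those of the 2896 genes of highest level. Cyp2e1, the ethanol-inducible P450, read 9490 and 9779 in WT and 14190 and 15420 in KO, a difference of 0.62 that became 1.38 with trimmed-mean scaling. Cyp2b9 was 2.61-fold, Cyp2c23 2.18-fold and Cyp2c37 1.86-fold higher, whereas Cyp2c70, which makes mouse muricholic acids, was 2.18-fold lower. By position in the liver lobule, 6 of 18 tested genes typical of the pericentral zone were higher and none lower, among them Rgn (2.05-fold) and Oat (1.62-fold). Of 18 typical periportal genes, 2 were higher and 6 lower. The 2 zonation lists share genes with the lists above, so they are not separate evidence.

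**Figure D3:**
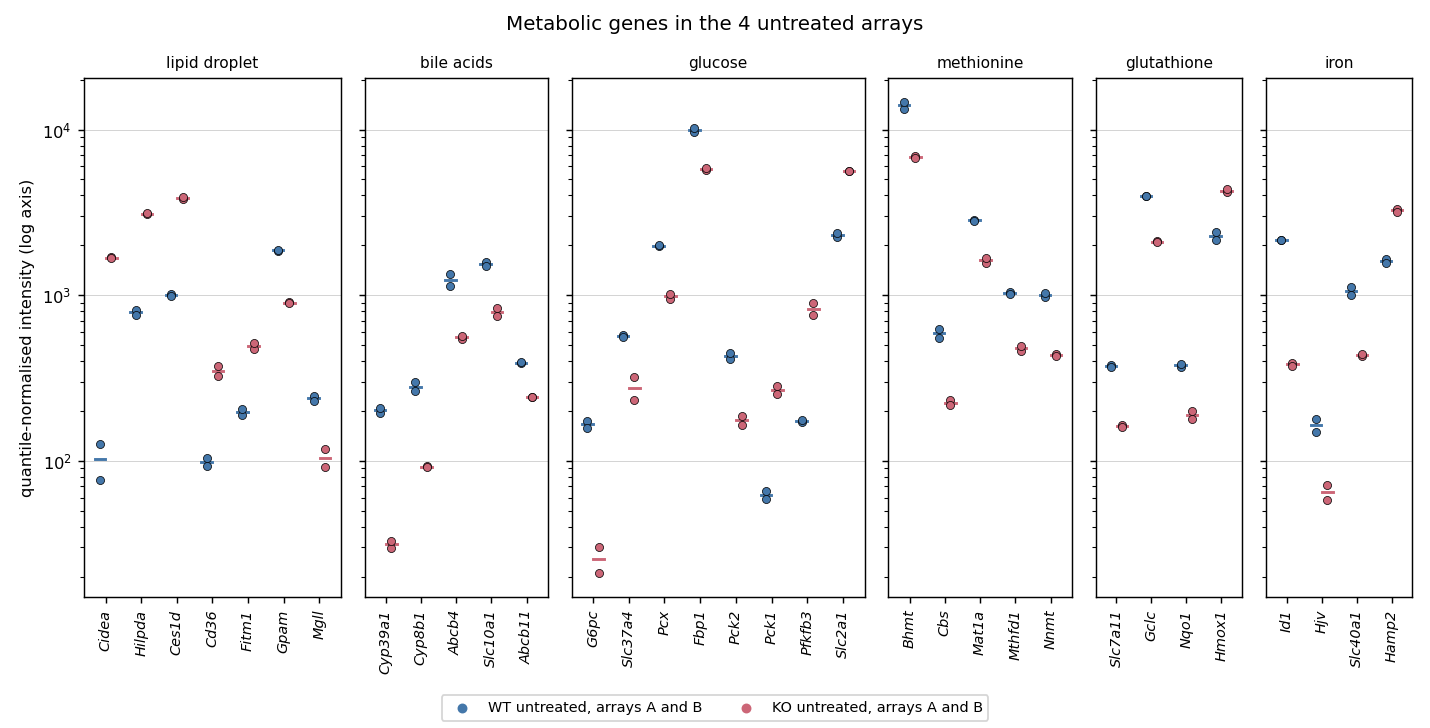
Points are the quantile-normalised intensities (log axis) of metabolic genes on WT arrays A and B (blue) and KO arrays A and B (red), and short bars are group means. The genes shown were picked from called genes, and their groups do not overlap, as for 71.9% of all tested genes. Cidea, Pck1 and Pfkfb3 are high in KO and G6pc, Cyp39a1 and Id1 low.

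For respiratory chain complex I, which takes electrons from NADH, 19 of 33 tested genes were lower and 1 higher, none by 2-fold, with a median of -0.33 (-0.32 with trimmed-mean scaling, 16 lower and 2 higher). Ndufb7 read 2541 and 2476 in WT and 1191 and 1353 in KO, and Ndufc1 and Ndufv1 were 1.98-fold and 1.58-fold lower. For complexes II to V, 14 of 38 genes were lower and 2 higher, but 5 were lower and 7 higher with trimmed-mean scaling. Cyc1 and Uqcrc1 of complex III fell 1.45-fold and 1.46-fold and Atp5g1 of the ATP synthase 1.59-fold under the main setting. With a constant variance prior, 11 complex I genes were called lower and none higher.

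Of 25 tested iron and heme genes, 12 were lower, 4 higher and 9 not called (median -0.23, -0.22 with trimmed-mean scaling). Id1, a target of the BMP signal that reports iron load, read 2165 and 2156 in WT and 392.3 and 376.2 in KO, a decrease of 2.44 ± 0.08 (adjusted p = 7.15e-08). Hjv, the BMP co-receptor hemojuvelin, was 2.22-fold lower, Hfe, the hemochromatosis protein, 1.93-fold and Tmprss6, which cleaves hemojuvelin, 1.68-fold. Slc40a1, the iron exporter ferroportin, was 2.38-fold lower. The hepcidin genes did not follow: Hamp2 was 2.01-fold higher, and Hamp, the hormone that degrades ferroportin, read 15880 and 15080 in KO against 12580 and 12720 in WT. The difference of Hamp was 0.29 (adjusted p = 0.0118) and 1.11 with trimmed-mean scaling, and it was not called with a constant variance prior (adjusted p = 0.109) or without any 1 of the untreated arrays (0.0524 to 0.129). Among retinoid genes, Retsat, which saturates retinol, was 2.44-fold lower and Dhrs3, which reduces retinal, 1.83-fold higher.

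Turning to secretion, the plasma protein list had 8 higher and 12 lower of 38 tested genes, a split that depended on scaling (18 higher and 7 lower with trimmed-mean scaling). Alb, the albumin gene, read 13730 and 13730 in WT and 15080 and 15790 in KO and was not called (adjusted p = 0.384), while trimmed-mean scaling gave a difference of 1.04 (adjusted p = 0.0192). It was also called, with a difference of 0.16 to 0.17, when the untreated arrays were fitted alone, when the B ethanol arrays were left out, and without either KO ethanol array (adjusted p = 0.0072 to 0.0116). Ahsg, which encodes the mineral-binding fetuin-A, fell from 10190 and 9899 to 4065 and 3760, a difference of -1.36 ± 0.07 (adjusted p = 2.05e-06) that was -1.13 with trimmed-mean scaling. Agt, the precursor of angiotensin, was 2.51-fold lower. Serpina7, the thyroxine-binding globulin, read 1412 and 942.1 in KO against 173.9 and 172.7 in WT (6.18-fold), and Serpina6, the corticosteroid-binding globulin, was 1.85-fold higher.

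Lipoprotein genes held several of the larger secretory decreases, with 11 lower and 6 higher of 25 tested (9 and 10 with trimmed-mean scaling). Apoa5, which promotes clearance of plasma triglyceride, read 2698 and 2732 in WT and 514.9 and 541.7 in KO. It fell by 2.33 ± 0.07 (adjusted p = 5.73e-08). Apoc2, the cofactor of lipoprotein lipase, was 2.57-fold lower, Apom, a carrier of sphingosine-1-phosphate, 2.16-fold and the remnant receptor Lrp1 2.82-fold. Pltp, which transfers phospholipid between particles, was 3.29-fold higher, and Mttp, which loads lipid onto apolipoprotein B, 1.51-fold.

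In coagulation and fibrinolysis, 13 of 31 tested genes were lower and 8 higher, against 9 lower and 10 higher with trimmed-mean scaling. Hpn, the surface protease hepsin, was 2.46-fold lower and Serpinf2, the plasmin inhibitor, 2.20-fold. Serpina10, an inhibitor of factor Xa counted on the plasma protein list, was 1.96-fold lower. Serpinb2, an inhibitor of plasminogen activators, rose from 18.31 and 21.64 to 410.3 and 424.6. That difference was 3.59 with an offset of 16, 2.52 with 64 and 4.32 with 1, and 2.96 when array B of each ethanol group was taken as untreated. Tfpi2, a protease inhibitor of the matrix, was 3.50-fold higher and F5, coagulation factor V, 1.69-fold. Of 22 tested complement genes, 8 were lower and 1 higher. C8b, of the membrane attack complex, and Mbl1, a mannose-binding lectin, fell 1.86-fold and 1.99-fold, and Masp2, the lectin pathway protease, 1.55-fold.

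Within the secretory machinery, 15 of 37 tested genes of ER translocation and glycosylation were lower, 3 higher and 19 not called, with a median of -0.16 (-0.17 with trimmed-mean scaling). Sec61a1, the core of the translocon, fell 1.51-fold on its brightest probe set, with 3 of its 6 tested probe sets called lower. Ssr2, of the translocon-associated complex, was 1.73-fold lower, Rpn2, of the oligosaccharyltransferase, 1.61-fold, Spcs1, of signal peptidase, 1.41-fold and Alg3, a mannosyltransferase, 1.76-fold. Of 40 tested chaperone and unfolded protein response genes, 9 were higher and 12 lower. Ero1a, which oxidises the enzyme that forms disulfide bonds, read 1904 and 1839 in WT and 6988 and 7082 in KO, an increase of 1.90 ± 0.08 (adjusted p = 2.58e-07). Eif2ak3, the stress sensor PERK, was 2.41-fold higher, Atf3 2.51-fold and the co-chaperone Dnajb9 2.03-fold. Asns, a target of the same stress branch, was 2.29-fold lower, as was the chaperone component Sdf2l1 (2.28-fold). Hspa5, the main ER chaperone BiP, read 9509 and 10030 in WT and 10290 and 10190 in KO (adjusted p = 0.443), and 0.65 higher with trimmed-mean scaling (adjusted p = 0.00386).

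Further along the pathway, 11 of 51 tested genes of ER to Golgi coats and cargo receptors were higher and 16 lower. Rab1b, which gates ER to Golgi transport, was 1.96-fold lower, Yif1a, a Golgi membrane protein, 2.18-fold and Kdelr1, which returns ER proteins, 1.52-fold. Lysosomal genes had 14 lower and 7 higher of 45. The enzymes Glb1, Smpd1 and Gusb, which degrade galactosides, sphingomyelin and glucuronides, were 2.60-fold, 2.09-fold and 1.83-fold lower. For the proton pump the subunits differed, with Tcirg1 1.82-fold lower and Atp6v1a 1.55-fold higher.

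The structural genes began with the epithelium. Krt8 and Krt18, the keratins of hepatocytes, read 15330 and 15610, and 17630 and 17340, in WT, and 15000 and 14670, and 17340 and 16520, in KO, and neither was called (adjusted p = 0.571 and 0.608). The groups overlapped for Krt18 and lay close together for Krt8. With trimmed-mean scaling their differences were 0.83 and 0.90, so their direction depended on the scaling. Of 22 tested genes of keratins, desmosomes and cornified envelope, 5 were lower and 3 higher. Jup, the junctional plakoglobin, was 2.43-fold lower and Perp, a desmosome protein, 1.83-fold. Tgm1, another transglutaminase, which crosslinks the envelope of skin cells, read 299.4 and 313.0 in WT and 1092 and 1095 in KO (3.44-fold, adjusted p = 3.74e-06).

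Junction genes had 14 lower and 8 higher of 45 tested, with a median of -0.18 (-0.16 with trimmed-mean scaling). Cldn3, a tight junction claudin of hepatocytes, read 3977 and 3827 in WT and 1243 and 1322 in KO, lower on all 4 of its probe sets (3.02-fold, adjusted p = 7.63e-07). Other claudins rose, Cldn14 2.13-fold and Cldn2 1.68-fold, and Cldn1 was not called (adjusted p = 0.277). Cdh1, which encodes E-cadherin, read 3663 and 3092 in WT and 1798 and 1745 in KO (adjusted p = 0.00722). Without WT array A or KO array B its adjusted p was 0.0583 or 0.0547. Of the gap junction genes, Gjb1, the connexin 32 of mature hepatocytes, was 1.41-fold lower (adjusted p = 0.00485, and 0.052 without KO array B), and Gja1, connexin 43, was 2.12-fold higher on 4 of its 6 probe sets. Dlg1, a polarity scaffold, was 1.86-fold higher.

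The actin list had 9 higher and 19 lower of 69 tested genes, and 17 of each with trimmed-mean scaling. Actb, the beta-actin gene, read 12990 and 12480 in WT and 13050 and 13000 in KO (adjusted p = 0.832), and its difference was 0.81 with trimmed-mean scaling (adjusted p = 0.0219). Below the very bright range, S100a6, a calcium-binding protein of motile cells, fell from 880.7 and 905.8 to 186.0 and 179.9, or 4.57-fold (adjusted p = 2.36e-06). Fhl2, a LIM protein of stress fibres, was 2.62-fold lower, Cnn2, a calponin, 2.34-fold, Vasp, which lengthens filaments, 1.89-fold and Pdlim7, another LIM protein, 1.88-fold. In the other direction, Lcp1, an actin bundler best known from blood cells, rose from 1781 and 1895 to 5267 and 5285, Marcks 2.38-fold and the tropomyosin Tpm2 1.88-fold. For tubulins and microtubule proteins, 13 of 27 tested genes were lower and 4 higher, with a median of -0.39 (-0.17 with trimmed-mean scaling). Tubg1, of the nucleating ring, was 2.03-fold lower and the tubulin cofactor Tbcd 1.83-fold. Dctn2, of the dynactin complex, was 1.70-fold lower and Dynll2, a dynein light chain, 1.72-fold.

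Integrin, adhesion and matrix genes, the list closest to the extracellular partners of transglutaminase 2, had 12 higher and 16 lower of 69 tested. Fn1, encoding fibronectin, read 5841 and 5882 in WT and 3838 and 3862 in KO, 1.52-fold lower on its brightest probe set, with 1 of 2 called. Its difference was -0.60, and -0.42 with trimmed-mean scaling. The integrin subunits Itgb5 and Itga3 were 2.12-fold and 1.80-fold lower, Col4a2, of basement membrane collagen, 2.05-fold and Ccn2, the matricellular factor CTGF, 1.77-fold (-0.82, and -0.63 with trimmed-mean scaling). Tinagl1, a matrix protein that binds integrins, fell from 532.0 and 587.2 to 90.29 and 52.59 (6.73-fold, adjusted p = 5.63e-05), and Spon2, a secreted spondin, from 293.9 and 356.7 to 36.60 and 38.95. The Spon2 difference of -2.66 was -1.93 with an offset of 64 and -1.60 averaged over all of its probe sets. Matrix proteases and the hyaluronan receptor rose: Mmp13 read 335.3 and 351.1 in KO against 73.95 and 69.18 in WT, Mmp9 was 2.94-fold higher, and Cd44 was 3.60-fold higher on all 3 probe sets. Lama3, a laminin chain, read 177.3 and 194.3 in KO against 41.78 and 34.57 in WT, a difference of 1.90, of 1.29 with an offset of 64 and of 1.12 over its probe sets. Dcn, the proteoglycan decorin, was 2.83-fold higher.

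**Figure D4:**
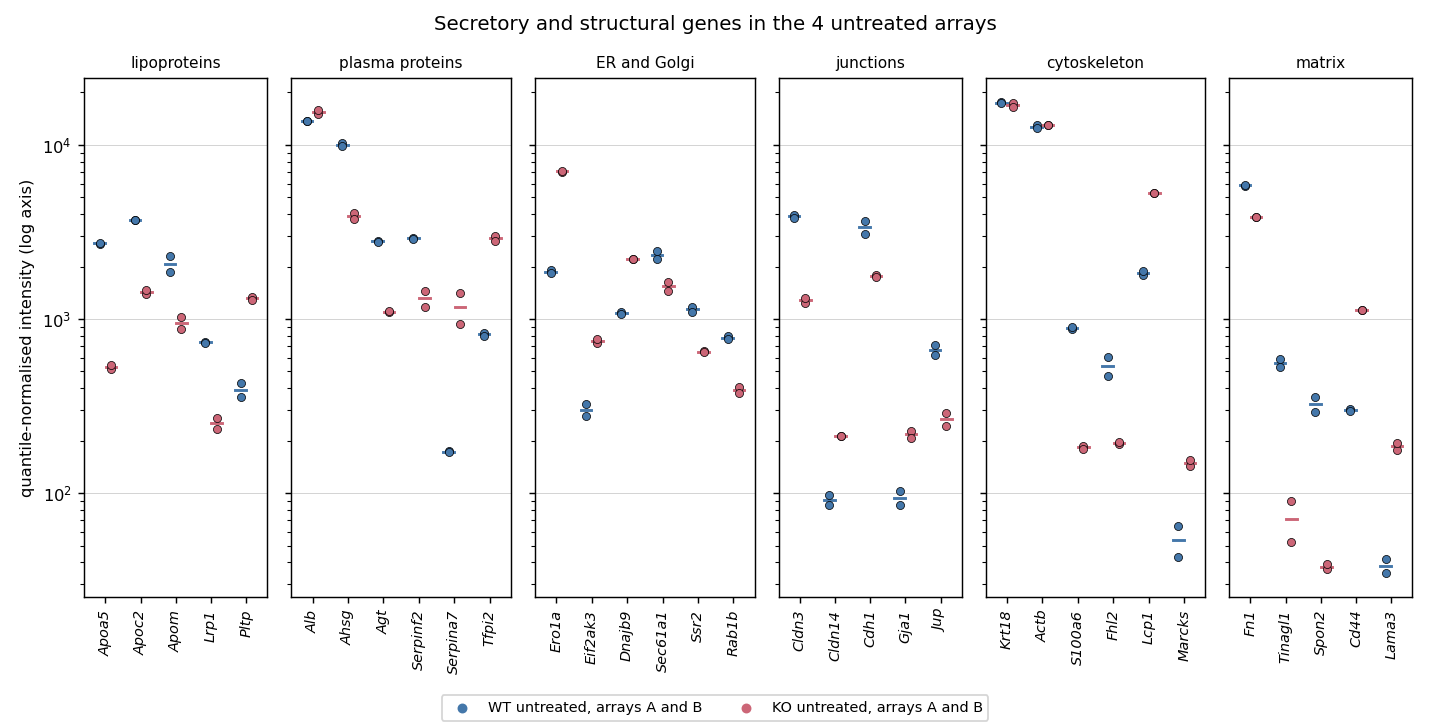
Points are the quantile-normalised intensities (log axis) of secretory and structural genes on WT arrays A and B (blue) and KO arrays A and B (red), and short bars are group means. Apoa5, S100a6, Tinagl1 and Spon2 lie far lower in KO, Serpina7, Ero1a and Cd44 higher, while Krt18 overlaps between the groups and Actb nearly does.

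Markers of other liver cells were measured beside these genes. For Kupffer cells and macrophages, 18 markers were measured and their summed level was 1673 and 1802 in WT and 2774 and 2826 in KO. The 15 tested had a median difference of -0.13. Of them, Cd68 (2.80-fold, group means 411.8 in WT and 1181 in KO) and Mpeg1 (3.68-fold, 174.0 and 684.4) were higher and weigh heavily in the sum. Csf1r, Marco and Lyz2 were lower, these 3 with adjusted p of 0.0443, 0.0325 and 0.0483. Without any 1 of the untreated arrays these p-values lay between 0.0836 and 0.243, so the calls were lost. The Kupffer cell genes Adgre1, at 105.0 and 130.2 in WT and 81.91 and 69.19 in KO, and Clec4f, at 89.14 and 83.65 and at 73.53 and 74.20, were not called. The 15 endothelial markers summed to 1139 and 1145 in WT and 1200 and 1379 in KO. Of them, Cdh5 was called higher (0.95, adjusted p = 0.00742, but 0.0654 without WT array B and 0.0678 without KO array B), and Pecam1 was not (adjusted p = 0.36). The stellate cell genes Lrat and Pdgfrb read at most 28.29 on any untreated array, and the bile duct genes Krt7 at most 15.37 and Krt19 at most 49.30. Sox9, a bile duct and progenitor factor, was 3.13-fold higher, at 995.9 and 903.2 against 275.7 and 310.0. Dcn, counted above with the matrix, was the only stellate and fibroblast marker called of 7 tested. The summed level of 15 stellate and fibroblast markers was 568.7 and 450.1 in WT and 661.3 and 728.5 in KO, that of 9 bile duct and progenitor markers 1682 and 1596 in WT and 2104 and 1998 in KO, and that of 13 neutrophil and lymphocyte markers 280.2 and 247.6 in WT and 265.8 and 250.5 in KO. Of 3 measured erythroid markers, which summed to 269.9 and 282.1 in WT and 475.6 and 453.0 in KO, Alas2, the heme synthesis enzyme of red cell precursors, was the 1 tested and was 1.75-fold higher. Single genes weigh heavily in these sums as well: the group means were 104.1 in WT and 321.0 in KO for Dcn, and 239.7 and 432.5 for Alas2. Tested stellate and fibroblast markers had a median difference of 0.02, and tested bile duct and progenitor markers one of -0.33. The part of other cell types in the differences above was not tested.

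To see which of the untreated differences were also present with ethanol, the same genotype contrast was taken in the 4 ethanol arrays, which share no array with the untreated comparison. There, 3177 of the tested genes were called (27.4%). Of the 3887 genes called without ethanol, 3377 had the same sign with it (86.9%), against 59.5% of genes not called. Called in the same direction with ethanol were 1983 (51.0%). Of the 850 called genes that differed at least 2-fold, 804 kept their sign. The same sign was found for 226 of 256 called metabolic genes, 145 of 168 secretory genes and 97 of 103 structural genes. A difference between the 2 genotype contrasts was called for 509 genes (4.39%), in 347 of them with the larger difference in untreated cells. In 286 of the 509 the 2 differences had opposite signs. The count of 509 rested on the variance prior, falling to 1 with a constant prior.

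Of the 179 called genes named here, 175 had the same sign with ethanol and 155 were also called there in that direction. The exceptions in sign were Insig1, Ssr2, Lyz2 and Cdh5. Cbs differed by -1.34 without and -1.26 with ethanol, Lcp1 by 1.51 and 1.39, and Tgm1 by 1.78 and 1.66. A smaller difference under ethanol was called for Foxa2, which was -2.29 without ethanol and -0.72 with it (adjusted p of the difference = 0.0117). In ethanol-treated cells Foxa2 read 336.2 and 347.5 in WT and 233.9 and 174.0 in KO, so the KO level was higher with ethanol while the WT level was much the same. Srebf1, Ssr2, Vasp and Pdlim7 had untreated differences of -0.93, -0.79, -0.92 and -0.91, and with ethanol -0.06, 0.01, -0.18 and -0.16. Of the increases, Ero1a was 1.90 without ethanol and 2.43 with it, and Pltp 1.72 and 2.49.

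**Figure D5:**
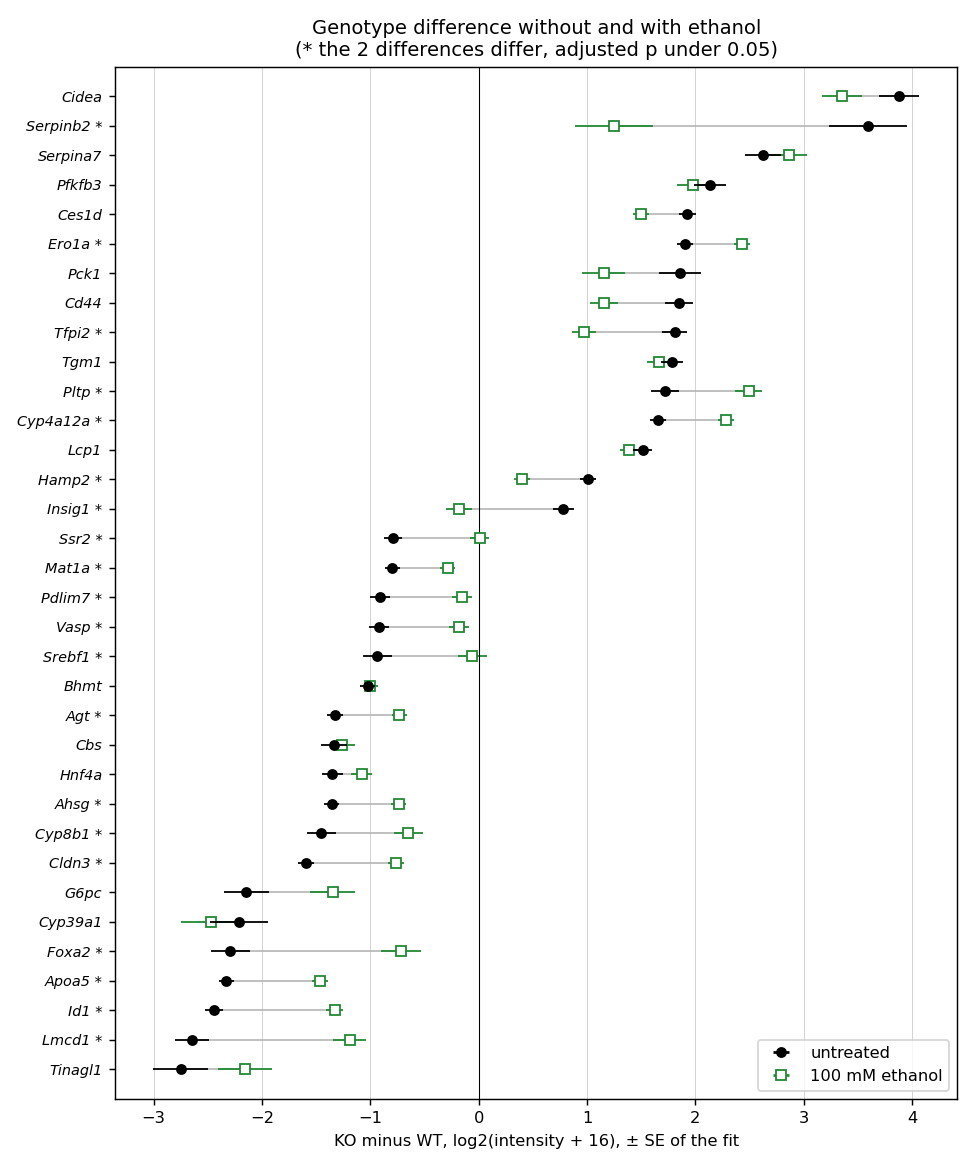
KO minus WT in log2(intensity + 16), with the standard error of the fit, for genes named in the text in untreated cells (filled circles) and with 100 mM ethanol (open squares). Asterisks mark genes whose 2 differences differ at an adjusted p under 0.05. Bhmt and Cbs nearly coincide, while Foxa2, Serpinb2 and Lmcd1 lie far closer to 0 with ethanol.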

How the data were processed

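RNA of 8 samples was labelled as biotin cRNA by in vitro transcription and hybridised to 1-colour Affymetrix arrays, per the labels' protocols. The deposited values are linear intensities, 1 per probe set, for 45101 probe sets with 64 controls. The authors' software for summarising and scaling is not given in the sources used here. Detection calls were left aside. On WT ethanol array B, 5410 values (12.0%) were unusable, 5403 of them exact zeros, and were treated as missing in the fit, so that Insig1 and Hjv there rest on 1 WT array. Array B of each ethanol group carries a treatment entry that describes untreated cells, and its title was followed instead.

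Intensities were quantile normalised and transformed as log2(intensity + 16), which understates changes of dim genes. A linear model with a mean for each of the 4 groups was fitted to the 8 arrays in limma 3.58.1 (R 4.3.3), with eBayes and a variance prior that follows intensity, on the 50% of non-control probe sets with the highest mean over the untreated arrays (22519, at least 5.27 on the log2 scale). Benjamini-Hochberg adjustment covered all of them. A single symbol was given for 34945 non-control probe sets (34741 matched RefSeq), several symbols for 932, and none for 9160. A gene is its brightest probe set. Tables and plots used Python 3.11.15.

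The 45 lists held 1323 genes, 1219 of them measured. The members, lists and alternatives were chosen with earlier results of these data known. Genes were named from list anchors, up to 6 called genes per list and direction with the largest change, the 3 brightest of a list, the 20 largest changes each way among called genes with a level of at least 100, and neighbours of Tgm2. No gene list was tested as a set. The precision is limited by the 2 arrays per group.

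Same-lettered untreated arrays did not deviate together from their group means (correlation 0.02 between WT and KO). For untreated KO with the WT and KO ethanol groups the correlation was 0.024 and 0.027. Among the other groups it was 0.201 to 0.288. Same-lettered arrays thus deviated together to some degree in every group but untreated KO, and the cause was not tested. Since not every pair passed 0.1 and no label ties the letters to a shared source, A and B were not taken as pairs. The fit was tested on simulated data.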

Additional observations from a re-analysis of the deposited data

Results flagged for a closer look

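The difference between the genotype contrast without ethanol and that with ethanol was called for 509 genes by limma's adjusted p. Among the genes named here it was called for 27, of which 22 had the smaller difference with ethanol. Many genes were named for a large untreated difference, which favours a smaller one with ethanol, so this count shows no tendency. Values below are the untreated KO minus WT difference less that with ethanol, on the log2 scale. A constant variance prior left 1 gene called, so these results rest on the intensity trend of the prior. The untreated KO arrays also differed from the KO ethanol arrays in the cre control. The part of array quality in these results was not tested.

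Among genes lower in untreated KO cells with less of a decrease, or none, under ethanol, the value was -0.799 for Tgm2 itself, -1.575 for Foxa2, -1.454 for Lmcd1 and -1.115 for Id1. It was -0.863 for Apoa5, -0.62 for Ahsg and -0.593 for Agt among secreted proteins. For metabolic genes it was -0.875 for Srebf1, -0.804 for Cyp8b1, -0.512 for Mat1a, -0.458 for Asl, -0.55 for Tmprss6 and -0.521 for Retsat. For secretory and structural genes it was -0.8 for Ssr2, -0.697 for Rab1b, -0.83 for Cldn3, -0.735 for Vasp and -0.752 for Pdlim7.

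Among genes higher in untreated KO cells with less of an increase under ethanol, it was 2.343 for Serpinb2, 0.837 for Tfpi2 and 0.603 for Hamp2. Insig1, at 0.96, was higher in KO without ethanol and not called with it, where only 1 WT array had a value. Larger differences under ethanol gave -0.631 for Cyp4a12a, -0.776 for Pltp, -0.526 for Ero1a and -0.466 for Hmox1, all higher in KO, and 0.487 for Cyp51, which was lower.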

How the results depend on the processing

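The counts of genes higher (1130 to 2073) and lower (1612 to 2767) in untreated KO cells stayed within 1.5 times of 1644 and 2243 under all 12 alternatives. Leaving out 1 array gave 990 to 2053 higher and 1363 to 2817 lower, the lowest counts where an untreated array was left out. The count of genes whose genotype difference differed from that with ethanol was less stable. It was 289 with no filter, 1 with a constant variance prior, and 65 to 2384 with 1 array left out. The replicate block, which treats A and B as pairs, gave 1715 higher, 2371 lower and 606 that differed from ethanol. Of 179 called genes named here, 171 kept their call and direction in all 20 settings in which they were fitted. The other 8 are given with their values in the text or here: Met, which was 0.002708 averaged over its probe sets, Hamp, Cdh1, Gjb1, Cdh5, Csf1r, Marco and Lyz2. Directions turned only for genes not called besides Met. Krt8 was 0.8296 and Krt18 0.8956 with trimmed-mean scaling. When array B of each ethanol group was taken as untreated, Krt8 was 0.006421 and Actb -0.009637. Sp1 was 0.4168 averaged over its probe sets and -0.2301 to 0.1296 with 1 array left out, the highest without WT array A. Differences of genes near the offset, and of the 271 genes over 5000, depend most on these choices. The causes were not tested.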

Other observations

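Outside the lists, the largest decreases included genes with no common theme named here. Lmcd1, a LIM protein that restrains GATA6, read 2428 and 2261 in WT and 296.9 and 438.7 in KO, 6.25-fold lower (adjusted p = 3.71e-06). Gpx3, the secreted glutathione peroxidase, fell from 590.8 and 592.6 to 91.80 and 115.8. Mapk13, the p38-delta kinase, read 225.0 and 183.5 in WT and 14.78 and 7.722 in KO. Its difference was -3.02, -1.83 with an offset of 64 and -4.12 with 1. Cyp17a1, the steroid 17-alpha-hydroxylase, read 168.1 and 127.8 in WT and 5.065 and 6.263 in KO, a difference of -2.91, of -1.60 with an offset of 64 and of -4.48 with 1.

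Around Tgm2 on its chromosome, in the order of RefSeq gene starts, 15 of the 50 tested genes nearest to it (25 on each side) were called, 2 of them at 2-fold or more, against 33.6% and 7.34% of all tested genes. Hnf4a and Rpn2 are among these 15. Among the nearest 10 on each side, 4 were called, none at 2-fold. Among 50 on each side, 37 of 100 were called.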
